A study of Mus musculus with 10 samples.

Results

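The cytosolic ribosomal protein genes were taken as every protein-coding gene whose symbol is Rpl or Rps followed by a digit, or Rplp0 to Rplp2, with the S6 kinase genes left out. The rule used gene names and no measured value, and it found 85 of the 18047 genes measured. Of these, 30 encode proteins of the small (40S) subunit, 46 encode proteins of the large (60S) subunit, and 9 are paralogues or other proteins that the symbols also catch. The first 2 classes are called the canonical genes here. Another 6 symbols of the annotation fit the rule and were not analysed here. The libraries came from tumours of 4T1, a mammary carcinoma cell line derived from a BALB/c mouse, grown for 3 weeks in BALB/c mice and collected as frozen sections. There were 5 libraries (KO1 to KO5) from tumours of cells with a gene knocked out (KO) and 5 (WT1 to WT5) from tumours of wild-type (WT) cells. All carry the batch label 1, the labels give no drug treatment, and they do not say whether the knockout line is a single clone. The values are read counts divided by a size factor per library, here called normalized counts.

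Each ribosomal subunit is built from ribosomal RNA and one copy of nearly every ribosomal protein, so the proteins are needed in matched amounts, and surplus ribosomal proteins are degraded in mammalian cells. Their mRNAs are among the most abundant of a growing cell. Mammalian ribosomal protein mRNAs start with a run of pyrimidines at the 5′ end, the TOP motif, through which mTORC1 and the RNA-binding protein Larp1 set their translation and stability. In tumours the genes are followed as a readout of growth and of protein synthesis capacity.

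The start-site sequences show what the canonical genes share beyond their names and how the members discussed below differ from each other. RefSeq promoter sequences (GRCm38.p6) were found for 64 of the 85 members, 56 of them canonical. The windows shown run from 40 bases before to 20 bases from the annotated start, on the gene's own strand, with a run of at least 8 C or T bases that lies within 20 bases of the start in capitals. They lie at chr3:28805468-28805527 on the plus strand for Rpl22l1, chr14:18270967-18271026 on the minus strand for Rpl15, chr4:86857348-86857407 on the minus strand for Rps6 and chr7:141447611-141447670 on the plus strand for Rplp2, which hold such a run. Those of Rps7 (chr12:28635934-28635993 on the minus strand), Rplp0 (chr5:115559427-115559486 on the plus strand) and Rpl3l (chr17:24727786-24727845 on the plus strand) hold none.
Rpl22l1: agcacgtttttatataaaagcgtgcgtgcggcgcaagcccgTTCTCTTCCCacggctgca
Rpl15: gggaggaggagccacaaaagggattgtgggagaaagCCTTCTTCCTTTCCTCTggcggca
Rps6: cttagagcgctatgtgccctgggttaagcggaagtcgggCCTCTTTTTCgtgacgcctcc
Rplp2: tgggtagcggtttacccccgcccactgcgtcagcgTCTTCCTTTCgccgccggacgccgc
Rps7: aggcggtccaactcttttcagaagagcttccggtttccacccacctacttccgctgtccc
Rplp0: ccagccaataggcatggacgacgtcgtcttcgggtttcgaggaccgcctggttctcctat
Rpl3l: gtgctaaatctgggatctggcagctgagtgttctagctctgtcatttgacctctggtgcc

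A pyrimidine run of this kind was present in 30 of the 56 canonical genes (53.6%), against 23.4% of 17492 protein-coding genes. The letters CCGGAAG, the core of ETS family sites, were searched on both strands of the 300 bases from 250 before to 50 after the start, and 41.1% of the canonical genes held them, against 12.9% of the protein-coding genes. The YY1 motif AAGATGGCG was found in 5.36% of the canonical genes and 2.14% of the protein-coding genes. TATAAA, the TATA box, was found in 10.7% of the canonical genes and 14.8% of the protein-coding genes. The ETS and YY1 letters share AAG and the reverse of the ETS core holds a short pyrimidine stretch, so matches can overlap. These matches describe letters in a window and not a site in use, and a window without a run says nothing of where the mRNA starts in these tumours. The median log2 difference between KO and WT was 0.28 for the 30 canonical genes with a run and 0.29 for the 26 without.

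The reads behind the 10 libraries numbered 8609756 to 16066866 in KO and 11772430 to 19934428 in WT. All 85 genes passed the filter of a mean of at least 10 normalized counts, as did 17975 genes in all. Every one of the 10 epithelial and carcinoma markers was detected in every library, with summed levels of 13596 to 20041 normalized counts in KO and 19862 to 36795 in WT. The 9 keratinocyte markers summed to 203 to 487 normalized counts in KO and 529 to 12621 in WT, with WT3, WT5 and WT2 the highest and 5 to 7 of the markers at 0 in each KO library, against 5 each in WT1 and WT4, 1 each in WT2 and WT5 and 0 in WT3. The 9 skeletal muscle markers summed to 585 to 5895 normalized counts in KO and 681 to 109012 in WT, with WT2 the highest. The names of KO5, WT1, WT2, WT3 and WT4 carry the prefix RESUB, whose meaning is not given, and WT2 and WT5 share the library number 170. The labels list these as separate samples and do not say whether they come from 1 tumour. No library is tied to a named animal, so a p-value here measures only how libraries vary. In bulk tissue, fewer cells of a type and less RNA per cell cannot be told apart.

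The genes were expressed at high and unequal levels. Per kilobase of the principal coding transcript, the small subunit genes had a median of 7313 normalized counts over all libraries (range 657 to 20094) and the large subunit genes a median of 5746 (558 to 15351). In the small subunit Rps27, whose product carries a zinc finger, was highest at 24052 ± 10084 in KO tumours and 16136 ± 6236 in WT tumours (normalized counts per kilobase; SD, n = 5 each). Rps12 followed at 17749 ± 4478 in KO tumours and 15094 ± 5276 in WT tumours, and Rps7 at 18066 ± 6898 in KO tumours and 11084 ± 3866 in WT tumours. The lowest were Rps15a at 761.6 ± 253 in KO tumours and 553 ± 180.1 in WT tumours, Rps20 at 1316 ± 413 in KO tumours and 1057 ± 308 in WT tumours and Rps3, a protein of the mRNA entry channel, at 3338 ± 1253 in KO tumours and 2782 ± 1053 in WT tumours. The highest and lowest small subunit genes lay apart by far more than the spread between libraries. In the large subunit Rpl41, the shortest ribosomal protein, stood at 16952 ± 5061 in KO tumours and 13751 ± 5027 in WT tumours and Rpl13 at 14971 ± 4991 in KO tumours and 13969.5 ± 5287 in WT tumours, both among the highest. Rpl18 at 596 ± 186 in KO tumours and 521 ± 221 in WT tumours, Rpl35a at 1593 ± 423 in KO tumours and 1288 ± 328 in WT tumours and Rpl29 at 1660.3 ± 598 in KO tumours and 1454 ± 621 in WT tumours were lowest. The intervals of mean ± SD of the highest genes overlapped in each subunit. These SDs are spreads between libraries, in which the genes move together, so the overlap does not decide their order. Their order within each library was not tested. Levels per kilobase depend on the transcript length used: the annotated principal transcript is 5179 bases for Rps15a, 3706 for Rps20 and 2989 for Rpl18, against a median of 1077 over the canonical genes.

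The canonical genes moved from library to library as a block, in KO and in WT alike. Reads of the 85 genes made up 2.69, 3.98, 3.10, 4.43 and 5.29% in KO1 to KO5, against 3.49, 4.74, 2.80, 2.68 and 2.57% in WT1 to WT5. The KO mean was 3.90% ± 1.04 and the WT mean 3.26% ± 0.903 (SD, n = 5 each), and the ranges overlapped. As a median deviation from each gene's mean over all libraries (log2), the 76 canonical genes stood at -0.49, 0.18, -0.15, 0.45 and 0.72 in KO1 to KO5, against -0.055, 0.57, -0.48, -0.23 and -0.45 in WT1 to WT5. KO5 and WT2 were the highest libraries and KO1, WT3 and WT5 the lowest.

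The agreement between genes was close. In KO5 and in WT2 all 76 canonical genes were above their own median over the 10 libraries, and in KO1 and in WT3 0 of 76 were. KO2 had 62 above, KO3 20 and KO4 74, against 51 in WT1, 15 in WT4 and 6 in WT5. The highest library was KO5 for 56 genes, KO4 for 9 and WT2 for 11. The lowest was KO1 for 17, WT3 for 30, WT5 for 24 and WT4 for 3, with Rps2 and Rplp1 lowest in KO3. From the lowest to the highest library a canonical gene ranged over a factor of 1.89 (Rpl3) to 4.28 (Rps26), with a median of 2.65. Within a library the SD of the genes' deviations was 0.13 to 0.22 in KO and 0.12 to 0.27 in WT (log2). That was less than the SD of the canonical median between libraries, 0.48 in KO and 0.43 in WT.

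**Figure D1:**
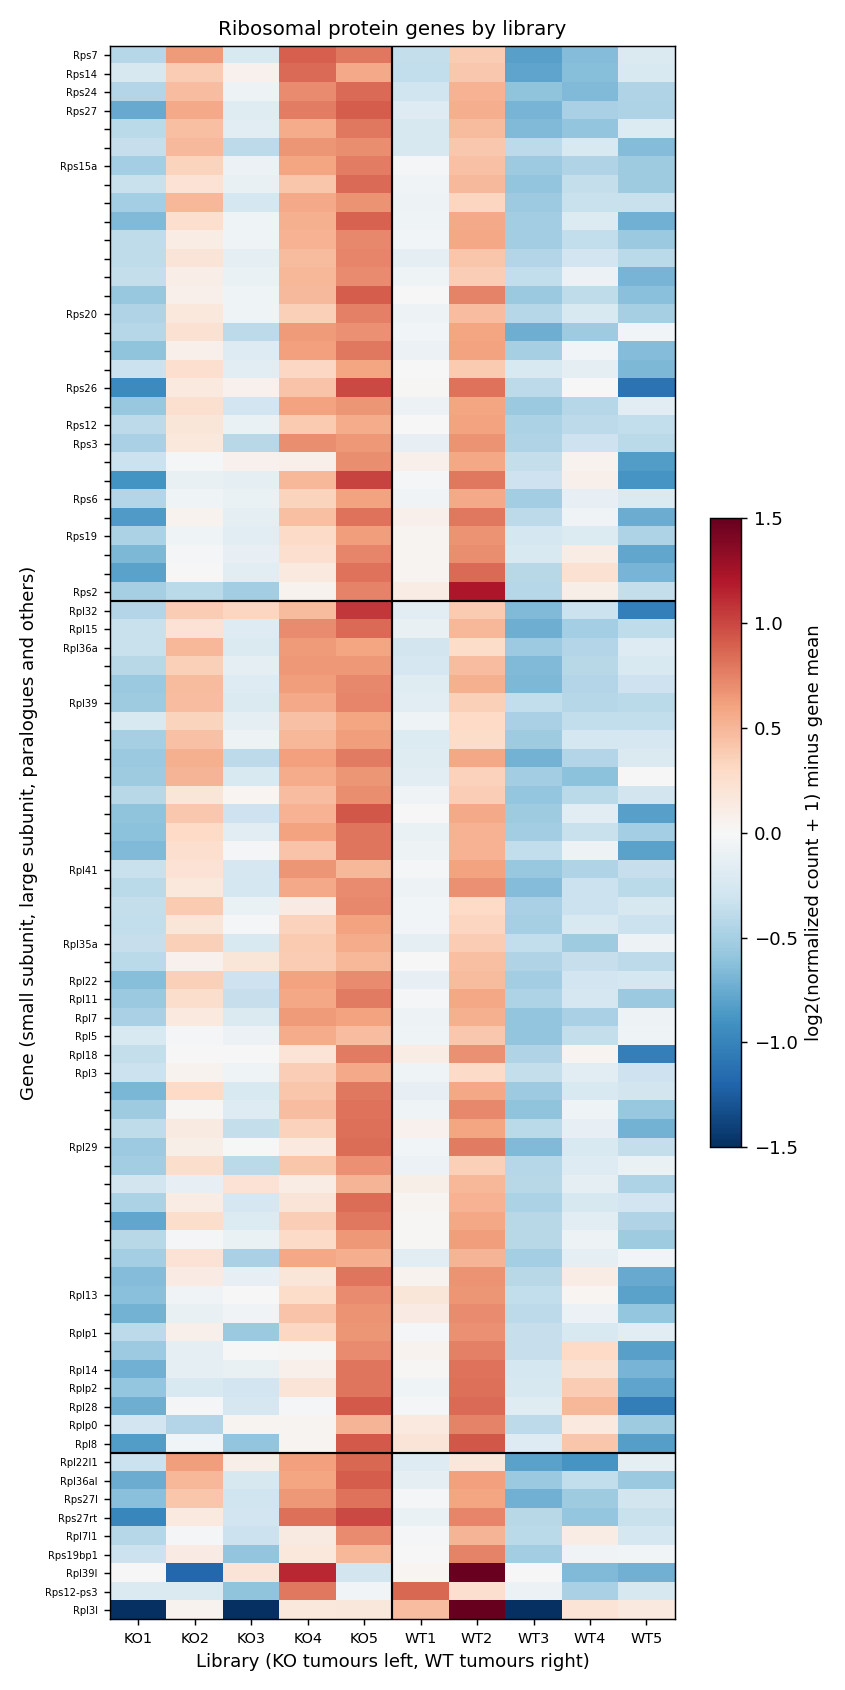
Each row is 1 of the 85 genes and each column 1 library, KO left and WT right; the colour is the log2 of the normalized count plus 1 minus the gene's mean over the 10 libraries, held at the end colours beyond 1.5. Lines part the small subunit, the large subunit and the 9 paralogues and others, with genes ordered by their KO minus WT difference and only genes named in the text labelled. The columns KO5, KO4 and WT2 are red and KO1, WT3 and WT5 mostly blue from top to bottom.

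Between KO and WT the block did not separate. The heat map of the 85 genes shows whole columns, not a left and a right side, standing apart. The canonical median averaged 0.14 ± 0.48 over KO libraries and -0.13 ± 0.43 over WT libraries (SD, n = 5 each), a gap smaller than either SD. Of the 85 genes 0 were called in limma, edgeR or DESeq2 after Benjamini-Hochberg adjustment over all genes (0.00556%, 0.00556% and 0.673% of all genes tested were called). At an unadjusted p under 0.05 limma placed 3 genes higher in KO (Rpl22l1, Rps14 and Rpl32; 2.82% of all genes tested) and 0 lower (3.67%). edgeR placed 4 higher and 1 lower at that level (2.61% and 4.71% of all genes tested) and DESeq2 6 higher and 0 lower (2.88% and 4.96%). In limma 18 genes were higher at that level without KO1 (3.01% of all genes tested), 18 without WT2 (3.77%) and 1 without KO2 (1.59%). DESeq2 gave Rpl3l no adjusted p, so its count covers the other 84 genes. For 0 of the 85 genes did the 2 groups of libraries lie apart, while they did for 1.42% of all genes tested (0.684% higher and 0.734% lower).

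The fitted values nevertheless lay on one side. They were higher in KO for 74 of the 85 genes, against 49% of all genes tested. The median log2 difference was 0.27, against -0.0073 over all genes. The 7 canonical genes with lower fitted values included Rps2 in the small subunit and Rpl8, Rplp0, Rpl28, Rplp2 and Rpl14 in the large, and the canonical differences ran from -0.25 to 0.72 (log2). Genes that move together from library to library share their direction, so the 74 are not 74 separate observations. The median within-group SD of the members was 0.50, against 0.44 for all genes (log2). Leaving out KO5 brought the median to 0.15 and the higher fitted values to 63 of 85, while it was 0.44 without KO1 and 0.44 without WT2.

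The RESUB prefix nearly coincides with genotype, since 4 of the 5 prefixed libraries are WT and 4 of the 5 others are KO. With the prefix as a term in the fit the median log2 difference of the 85 genes was 0.60, with 84 higher fitted values and Rpl3l the remaining gene. Under that fit 27 genes were higher at an unadjusted p under 0.05 (3.61% of all genes tested) and 0 passed the adjustment. Among the prefixed libraries the median was 0.80, which sets KO5 alone against 4 WT libraries. Among the rest it was 0.45, which sets 4 KO libraries against WT5 alone. With WT2 and WT5, which share a library number, averaged and counted as 1 library the median was 0.34, with 77 higher fitted values, 6 genes higher at an unadjusted p under 0.05 (3.42% of all genes tested) and 0 called. With WT2, WT3 and WT5, which hold most keratinocyte reads, left out it was 0.29, with 71 higher fitted values.

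**Figure D2:**
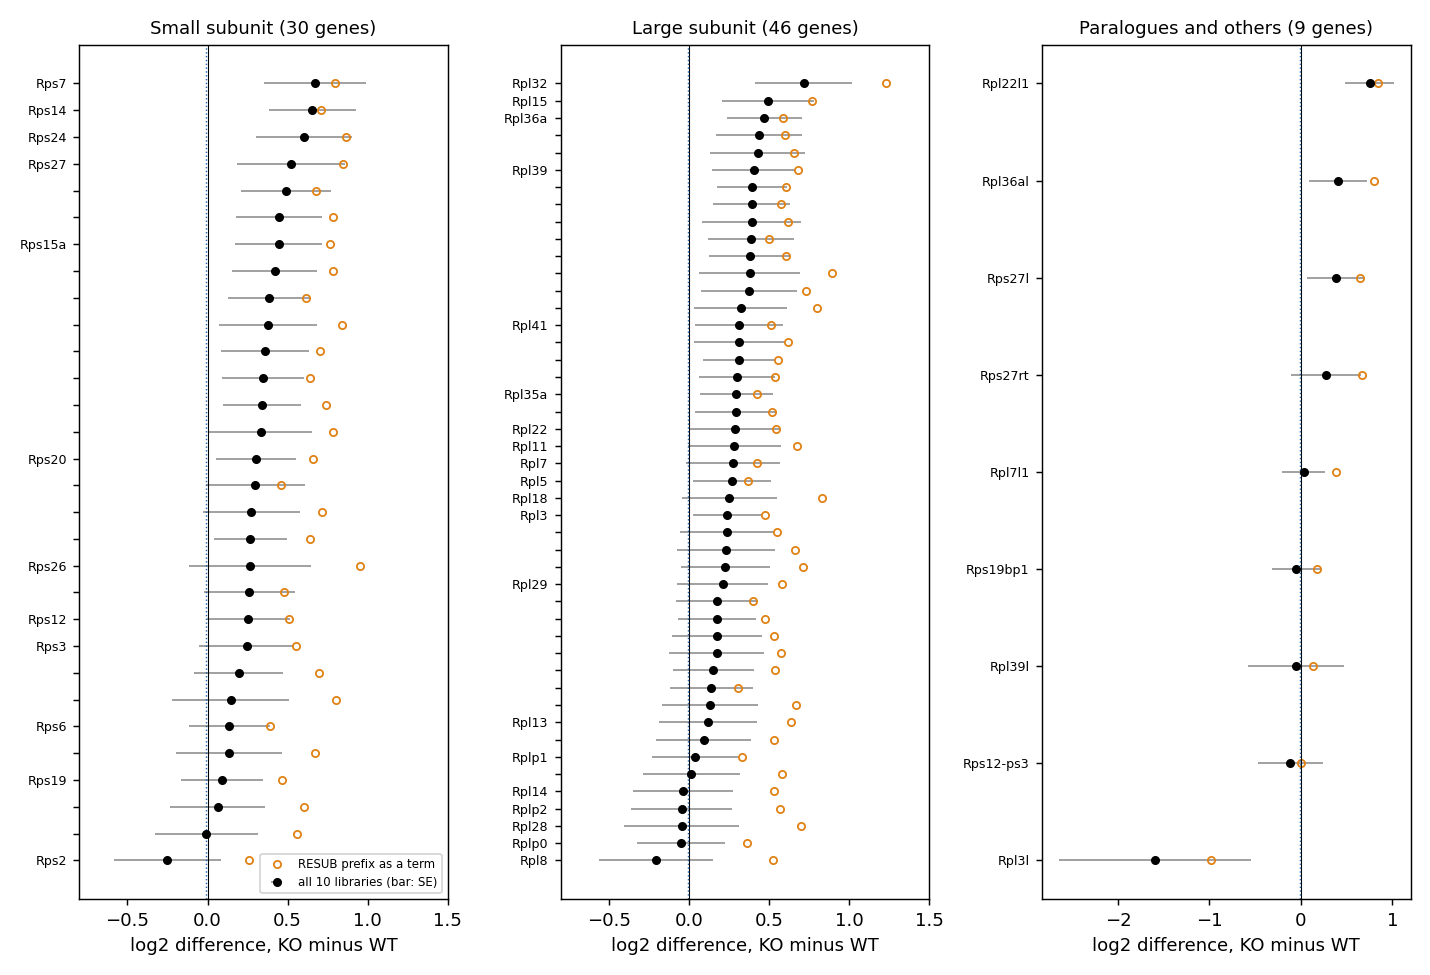
Points are the log2 difference, KO minus WT, of each gene over all 10 libraries with its SE as a bar, and open circles the difference with the RESUB prefix as a term, for 30 small subunit genes, 46 large subunit genes and 9 paralogues and others (the last on a wider axis), with only genes named in the text labelled. The dotted line is the median of all genes tested, -0.0073; most points lie to its right, and with the prefix term 84 of 85 do.

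The small and the large subunit moved together. The small subunit median stood at -0.46, 0.17, -0.14, 0.50 and 0.74 in KO1 to KO5, against -0.052, 0.58, -0.48, -0.26 and -0.51 in WT1 to WT5. For the large subunit it was -0.50, 0.18, -0.19, 0.42 and 0.71 in KO1 to KO5, against -0.058, 0.53, -0.48, -0.23 and -0.39 in WT1 to WT5. Small minus large lay between -0.12 and 0.075 (log2) in every library, at 0.036 ± 0.033 over KO libraries and -0.020 ± 0.062 over WT libraries (SD, n = 5 each), and its ranges overlapped. WT5 had the largest gap, at -0.12. Between KO and WT the median log2 difference was 0.30 for the small subunit, with 28 of 30 fitted values higher, and 0.27 for the large, with 41 of 46 higher (49% of all genes). The gap between those medians was 0.029, and it was 0.11 with the prefix term and 0.15 within the libraries without the prefix.

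**Figure D3:**
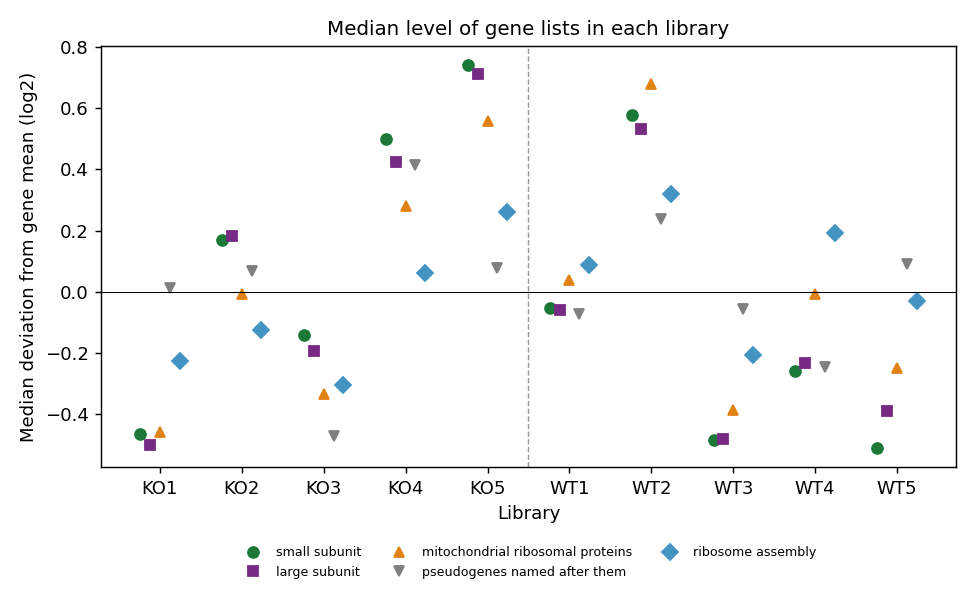
For each library (KO left, WT right) the symbols give the median deviation from the gene mean, in log2, of small subunit genes, large subunit genes, mitochondrial ribosomal protein genes, pseudogenes named after ribosomal protein genes, and ribosome assembly genes. Circles and squares, the 2 cytosolic subunits, lie almost on each other in every library, between -0.51 and 0.74.

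The 5 largest positive differences belonged to Rpl22l1, Rpl32, Rps7, Rps14 and Rps24. Rpl22l1, an alternative form of the large subunit protein Rpl22, lies at chr3:28805436-28807424 (plus strand) of GRCm38. It had 527, 1020.4, 702, 1007 and 1196 normalized counts in KO1 to KO5, against 573, 739, 376, 355 and 594 in WT1 to WT5. KO2, KO4 and KO5 were above every WT library, KO1 was below WT1, WT2 and WT5, and the groups overlapped. The means were 890.3 ± 269.9 normalized counts in KO tumours and 527 ± 161 in WT tumours (SD, n = 5 each), with a log2 difference of 0.75 ± 0.27 (SE; limma adjusted p = 0.674). Its window above carries the run TTCTCTTCCC just after the annotated start.

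Rpl32, a large subunit protein whose gene lies at chr6:115805505-115808747 (minus strand), had 3858, 6826, 6557, 7271 and 10915 normalized counts in KO1 to KO5, against 4656, 6886, 3302, 4201 and 2577 in WT1 to WT5. KO5 was highest and WT5 lowest, and WT2 exceeded every KO library except KO4 and KO5, so the groups overlapped. The fitted log2 difference came to 0.72 ± 0.30 (SE; limma adjusted p = 0.740). Rpl32 shares 53 exonic bases with Cand2 on the other strand, and the use of strand is not given in the sources used here.

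Rps7, a small subunit protein that can bind Mdm2, had 9481, 19925, 10919.6, 23695 and 22157 normalized counts in KO1 to KO5, against 9932, 16627, 7231, 8118 and 10964 in WT1 to WT5. KO2, KO4 and KO5 exceeded every WT library, and KO1 and KO3 lay within the WT range. Its log2 difference was 0.67 ± 0.32 (SE; limma adjusted p = 0.779). Rps14, a protein of the small subunit platform whose human gene lies in the segment lost in the 5q- syndrome, had 7381, 11318, 9065, 15700.4 and 12931 normalized counts in KO1 to KO5, against 6713, 11505, 5018, 5561 and 7406 in WT1 to WT5. KO4 and KO5 were above every WT library, and WT2 was above the other KO libraries, so the groups overlapped. Its log2 difference was 0.65 ± 0.27 (SE; limma adjusted p = 0.732).

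Rps24, which is mutated in some human patients with Diamond-Blackfan anaemia, had 6522, 12158, 8372, 14442 and 15943 normalized counts in KO1 to KO5, against 7187, 12655, 5804, 5592 and 6449 in WT1 to WT5. Only KO4 and KO5 exceeded WT2, which was far above the other WT libraries, all lower than every KO library except KO1. Here the log2 difference was 0.60 ± 0.30 (SE; limma adjusted p = 0.789). Rpl15, a large subunit protein with one of the pyrimidine runs shown above, had 3839, 5648, 4235, 7913 and 8731 normalized counts in KO1 to KO5, against 4495, 6852, 2914, 3419.6 and 3717 in WT1 to WT5. KO4 and KO5 exceeded every WT library and the rest overlapped, with a log2 difference of 0.49 ± 0.29 (SE; limma adjusted p = 0.851). Relative to the median of the 76 canonical genes in each library, the differences of Rpl22l1, Rpl32, Rps7, Rps14 and Rps24 were 0.48, 0.44, 0.40, 0.38 and 0.33 (log2).

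**Figure D4:**
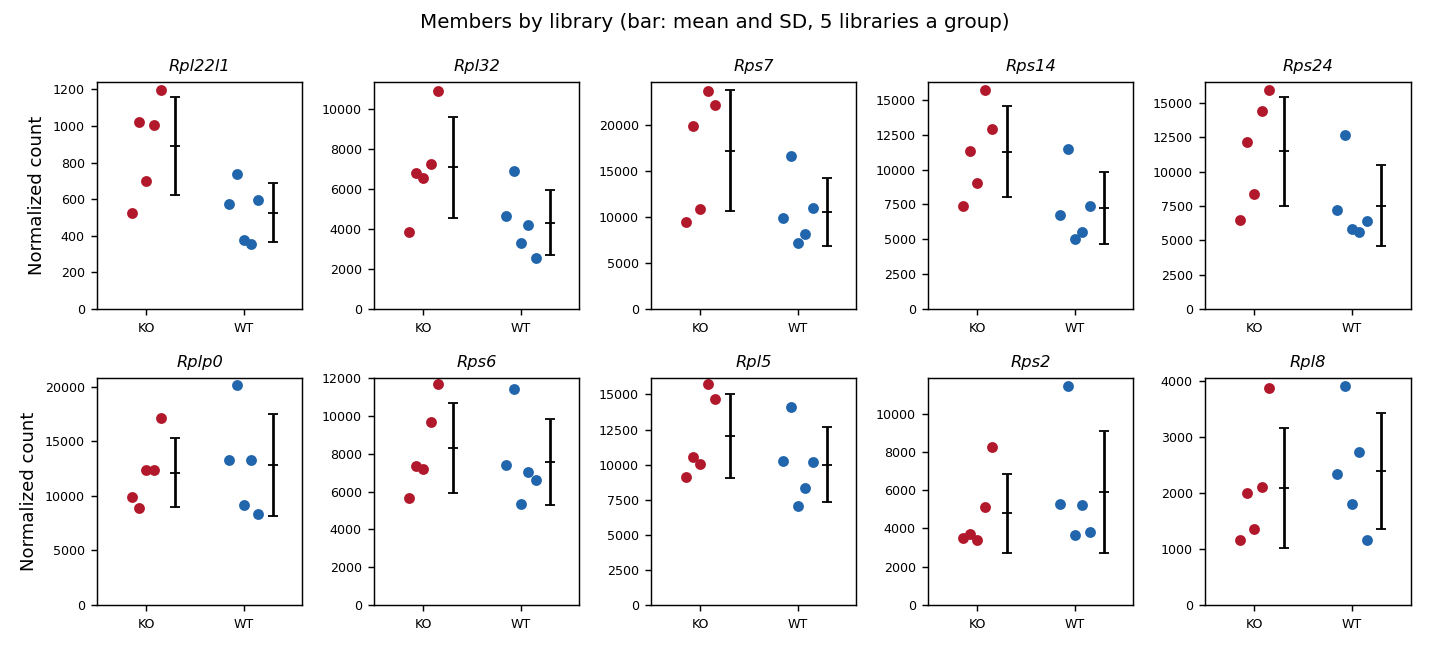
Each panel plots the normalized count of 1 gene in each KO library (left) and WT library (right), with the mean and SD of 5 libraries as a bar beside the points and a vertical axis that starts at 0. The top row holds the 5 genes with the largest positive difference, where the upper KO libraries exceed the WT libraries or all but WT2, and the bottom row holds Rplp0, Rps6, Rpl5, Rps2 and Rpl8, where the groups lie side by side.

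Among canonical genes the differences at the other end belonged to Rps2 and Rpl8. Rps2, a protein near the mRNA entry site of the small subunit, had 3470.2, 3715, 3415, 5093 and 8258 normalized counts in KO1 to KO5, against 5287, 11418, 3654, 5230.4 and 3818 in WT1 to WT5. WT2 alone was above every other library, and KO5 was the second highest. The log2 difference was -0.25 ± 0.33 (SE; limma adjusted p = 0.958), and it was 0.26 with the prefix term and 0.023 without WT2. Rpl8, which lies at the peptidyl transferase centre of the large subunit, had 1152, 1992, 1358, 2110.2 and 3873 normalized counts in KO1 to KO5, against 2347, 3909, 1797, 2734 and 1159 in WT1 to WT5. KO5 and WT2 were almost level at the top, and the groups overlapped throughout. Its log2 difference was -0.21 ± 0.36 (SE; limma adjusted p = 0.967), and 0.52 with the prefix term.

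The genes of the stalk proteins, which recruit elongation factors to the large subunit, lay low in the block without a prefix term. Rplp0 had 9881, 8868, 12382, 12367 and 17138 normalized counts in KO1 to KO5, against 13286, 20187, 9173, 13258 and 8314 in WT1 to WT5. WT2 and KO5 were the highest and WT5 the lowest, and the groups overlapped. Its log2 difference was -0.048 ± 0.28 (SE; limma adjusted p = 0.985). Rplp1 and Rplp2 had log2 differences of 0.036 ± 0.27 and -0.045 ± 0.32 (SE; limma adjusted p = 0.988 and 0.987). Relative to the median of the 76 canonical genes the 3 stalk genes stood at -0.32, -0.24 and -0.32, beside -0.52 for Rps2 and -0.48 for Rpl8. The median distance of a canonical gene from the block, in either direction, was 0.11. With the prefix term the log2 differences of Rplp0, Rplp1 and Rplp2 were 0.36, 0.33 and 0.57, beside a canonical median of 0.61. Rplp2 then lay close to that median.

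Rps6, the small subunit protein that the S6 kinases phosphorylate, had 5682, 7339, 7189, 9709 and 11696 normalized counts in KO1 to KO5, against 7412, 11414, 5368, 7057 and 6621 in WT1 to WT5. KO5 and WT2 were nearly equal at the top and WT3 and KO1 lowest, and its log2 difference was 0.14 ± 0.25 (SE; limma adjusted p = 0.970). Rpl5 and Rpl11 form a particle with 5S ribosomal RNA that binds Mdm2 when ribosome assembly is disturbed. Rpl5 had 9099, 10568, 10018, 15733 and 14707 normalized counts in KO1 to KO5, against 10258, 14121, 7069.8, 8336 and 10219.7 in WT1 to WT5. KO4, KO5 and WT2 were high, and KO1 to KO3 lay within the WT range. The log2 difference was 0.27 ± 0.24 (SE; limma adjusted p = 0.923), and Rpl5 shares 953 exonic bases with Fam69a on the other strand. Rpl11 averaged 2594 ± 984 normalized counts in KO tumours and 2091 ± 730.4 in WT tumours (SD, n = 5 each), with a log2 difference of 0.28 ± 0.29 (SE; limma adjusted p = 0.947).

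The 9 paralogues and other proteins spanned the widest range. Rpl3l, the form of Rpl3 found in heart and skeletal muscle, had 1.40, 10.3, 1.41, 11.2 and 11.3 normalized counts in KO1 to KO5, against 14.1, 366, 1.94, 11.6 and 11.1 in WT1 to WT5. WT2 stood far above every other library, and KO1, KO3 and WT3 were near 0. The log2 difference was -1.59 ± 1.05 (SE; limma adjusted p = 0.877) and it was -0.53 without WT2 and -0.98 with the prefix term, while edgeR gave -3.40 and DESeq2 -3.49 on the recovered reads. The muscle actin gene Acta1 had 83.9, 1619.7, 0, 1073 and 1395 normalized counts in KO1 to KO5, against 3885, 27352, 1.94, 1452 and 1419 in WT1 to WT5, and WT2 stood far above all other libraries of both groups. Of the 9 skeletal muscle markers, 1 was at 0 in KO3 and 2 were at 0 in WT3. Their part in the Rpl3l level was not tested.

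Ratios of a paralogue to its canonical partner within a library remove what both share. For 9 pairs the log2 ratio was tested by exact permutation of the library labels (two-sided), which with 5 against 5 can give no p below 0.0079. Rpl22l1 to Rpl22 gave log2 ratios of -2.04, -2.08, -1.96, -2.35 and -2.20 in KO1 to KO5, against -2.43, -2.66, -2.65, -2.96 and -2.24 in WT1 to WT5. KO1, KO2, KO3 and KO5 were above every WT library and KO4 was below WT5. The mean was -2.12 ± 0.15 over KO libraries and -2.59 ± 0.27 over WT libraries (SD, n = 5 each), so Rpl22l1 stood at 22.9% of Rpl22 in KO and 16.6% in WT. The difference of 0.46 had an exact permutation p of 0.0159, or 0.143 adjusted over the 9 pairs, and so did not pass. It was 0.48 among the prefixed libraries and 0.13 among the rest.

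Rps27rt, a retrogene copy of Rps27, gave a log2 ratio to Rps27 of -6.99 ± 0.21 in KO tumours and -6.74 ± 0.13 in WT tumours (SD, n = 5 each), with an exact permutation p of 0.0476 and 0.214 adjusted. The ratio of Rps27l, which Trp53 can induce, to Rps27 was -3.80 ± 0.11 in KO tumours and -3.66 ± 0.11 in WT tumours (exact permutation p = 0.0952, 0.268 adjusted). Every KO library except KO1 lay below all WT libraries for this ratio. Rpl36al, which encodes a protein close to Rpl36a, was at 62.7% of Rpl36a in KO and 65.6% in WT, with an exact permutation p of 0.667 before and after adjustment. Rpl7l1 was at 5.13% of Rpl7 in KO and 6.07% in WT, and Rpl39l, a form known from the mouse testis, at 0.446% of Rpl39 in KO and 0.613% in WT. Rps19bp1, whose product binds Rps19 and is no ribosomal protein, was at 3.61% of Rps19 in KO and 3.98% in WT. Rps12-ps3, which the annotation lists as protein-coding, averaged 20.1 ± 8.55 normalized counts in KO tumours and 21.8 ± 9.01 in WT tumours (SD, n = 5 each) and was at 0.197% of Rps12 in KO and 0.255% in WT. For these 4 pairs and for Rpl3l to Rpl3 the exact permutation p ran from 0.119 to 0.437, and from 0.268 to 0.491 adjusted. Where copies are nearly identical, the counting can split their reads, so the levels of such paralogues are uncertain.

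**Figure D5:**
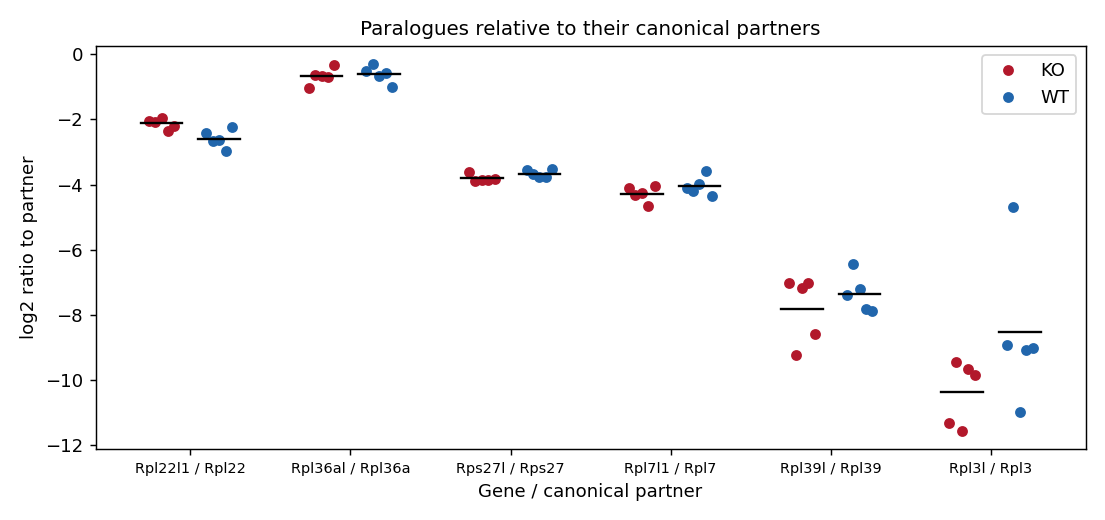
Points are the log2 ratio of a paralogue's level to that of its canonical partner in each library, KO left of WT in each pair, with a line at the mean of 5 libraries. For Rpl22l1 to Rpl22, 4 of 5 KO points lie above all WT points. For Rps27l to Rps27, KO2 to KO5 lie below all WT points and KO1 lies among them. For Rpl3l to Rpl3, every WT point except WT3 lies above all KO points, with WT2 the high point. In the remaining pairs drawn the groups overlap more.

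The 4 ribosome components that the symbol rule leaves out, Rpsa, Fau and Rack1 among them, followed the block. Neither limma, edgeR nor DESeq2 called any gene of these components or of the further ribosome and growth lists given next. At an unadjusted p under 0.05 limma placed Taf1b, Rps6kl1 and Eif4a2 higher and Eif2s3x lower among them (2.82% and 3.67% of all genes tested). Taf1b is 1 of 14 tested genes of its list, Rps6kl1 is 1 of 20, and Eif4a2 and Eif2s3x are 2 of 20. No gene of the other ribosome and growth lists reached that level. The median deviation of the 4 components was -0.44, -0.0046, 0.057, 0.29 and 0.77 in KO1 to KO5, against 0.019, 0.58, -0.44, -0.049 and -0.49 in WT1 to WT5. KO5 and WT2 were again highest. The fitted value was higher in KO for 4 of 4, with a median log2 difference of 0.23 (0.67 with the prefix term) and 0 called. Rpsa, the laminin-binding protein of the small subunit, averaged 27401 ± 8904 normalized counts in KO tumours and 21764 ± 8185 in WT tumours, with a log2 difference of 0.35 ± 0.30 (SE; limma adjusted p = 0.918). Fau, which encodes a ubiquitin-like fusion to Rps30, had 0.32 ± 0.26, and the scaffold gene Rack1 0.085 ± 0.28 (log2 difference, SE).

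The 78 mitochondrial ribosomal protein genes, whose products build the ribosomes of mitochondria, had the same high and low libraries. Their median deviation was -0.46, -0.0081, -0.33, 0.28 and 0.56 in KO1 to KO5, against 0.038, 0.68, -0.38, -0.0059 and -0.25 in WT1 to WT5. WT2 and KO5 were highest, and KO1 and WT3 lowest. Between KO and WT 36 of 78 fitted values were higher (median log2 difference -0.028, 0 called). The median was 0.32 with the prefix term, 0.50 among the prefixed libraries and 0.096 among the rest, against 0.60, 0.80 and 0.45 for the 85 genes, and the difference between the lists was not tested. Mrpl16 had a log2 difference of -0.45 ± 0.21 and Mrps33 0.48 ± 0.31 (SE; limma adjusted p = 0.777 and 0.874).

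Translation factors and further genes of the TOP class had 8 of 20 fitted values higher in KO (median log2 difference -0.096, 0 called). The sign of that median turned with the prefix term, to 0.21, and it was 0.37 among the prefixed libraries and -0.0086 among the rest. The median deviation of these 20 genes was -0.39, -0.044, -0.22, -0.0046 and 0.47 in KO1 to KO5. In WT1 to WT5 it was 0.0010, 0.48, -0.26, 0.16 and -0.15. WT2 and KO5 were highest and KO1 and WT3 lowest, as for the block. Eif4a2, an RNA helicase of translation initiation, averaged 4994 ± 683 normalized counts in KO tumours and 3697 ± 850.1 in WT tumours (log2 difference 0.46 ± 0.20, SE; limma adjusted p = 0.754). Eif2s3x, a subunit of the factor that brings the initiator tRNA, averaged 1547 ± 277 normalized counts in KO tumours and 2094 ± 327 in WT tumours (log2 difference -0.44 ± 0.18, SE; limma adjusted p = 0.727). The 8 noncoding hosts of small nucleolar RNAs, many of them TOP transcripts, had 8 of 8 higher fitted values, with a median of 0.12 (0.22 with the prefix term) and 0 called. Gas5 had 0.40 ± 0.21 and Snhg5 0.44 ± 0.28 (log2 difference, SE).

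Among genes upstream of the ribosome, the direction of the ribosome assembly median depended on the fit. Of 28 ribosome assembly genes 5 had higher and 23 lower fitted values in KO (median log2 difference -0.096, 0 called). The median turned to 0.095 with the prefix term, and it was 0.21 among the prefixed libraries and -0.097 among the rest. The median deviation of these 28 genes was -0.22, -0.13, -0.30, 0.062 and 0.26 in KO1 to KO5. In WT1 to WT5 it was 0.089, 0.32, -0.21, 0.19 and -0.029, so WT2 and KO5 were highest here too. Gar1, a protein of H/ACA small nucleolar particles, had -0.56 ± 0.26 and Ncl, which encodes nucleolin, -0.31 ± 0.18 (log2 difference, SE; limma adjusted p = 0.775 and 0.851). RNA polymerase I and its factors had 7 of 14 higher, with a median of 0.0052, and of 0.13 with the prefix term. Taf1b, a subunit of the selectivity factor of RNA polymerase I, had 227, 342, 262, 334 and 336 normalized counts in KO1 to KO5, against 209, 205, 203, 159 and 189 in WT1 to WT5. Every KO library was above every WT library, which 0.684% of all genes tested showed in that direction. Its log2 difference was 0.62 ± 0.18 (SE; limma adjusted p = 0.485). Polr1e, a subunit of the polymerase itself, likewise had no overlap, with 155 to 206 normalized counts in KO tumours and 115 to 152 in WT tumours (log2 difference 0.27 ± 0.17, SE; limma adjusted p = 0.871).

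Genes of mTORC1 and of the S6 kinase family had 5 of 20 fitted values higher in KO (median log2 difference -0.094, 0 called). The median was -0.15 with the prefix term and 0.070 among the prefixed libraries. Rps6kl1, which encodes a kinase-like protein named after the S6 kinases, had 16.8, 14.1, 14.1, 12.3 and 14.0 normalized counts in KO1 to KO5, against 7.48, 7.29, 7.77, 5.79 and 5.54 in WT1 to WT5. All 5 KO libraries were above all 5 WT libraries at this low level (log2 difference 0.97 ± 0.32, SE; limma adjusted p = 0.603). Larp1, which binds TOP mRNAs, averaged 2437 ± 562 normalized counts in KO tumours and 3391 ± 1687 in WT tumours, with WT4 the highest library at 6186, and had a log2 difference of -0.38 ± 0.30 (SE; limma adjusted p = 0.898). Myc and sensors of ribosome stress had 2 of 7 higher, with a median of -0.066 (-0.043 with the prefix term and 0.071 among libraries without the prefix). Myc itself, a transcription factor that drives ribosome production, averaged 1038 ± 281 normalized counts in KO tumours and 1331 ± 514 in WT tumours (log2 difference -0.33 ± 0.25, SE; limma adjusted p = 0.893).

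Of 113 pseudogenes named after ribosomal protein genes, 110 were tested, and 61 had higher fitted values (median log2 difference 0.032, 0 called; -0.017 with the prefix term). They did not follow the block in every library, with a median deviation of 0.012 in KO1 and 0.077 in KO5.

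Pan-leukocyte markers stood high and low in many of the same libraries as the block, and markers of single leukocyte types less evenly so. The 4 pan-leukocyte markers, all detected in every library, had median deviations of -0.19, 0.27, 0.10, 0.38 and 0.35 in KO1 to KO5, against -0.39, 0.27, -0.50, -0.31 and -0.32 in WT1 to WT5, and their summed levels were 7227 to 9376 normalized counts in KO and 5651 to 8868 in WT. KO2, KO4, KO5 and WT2 were high for these markers and for the ribosomal protein genes, and KO1, WT3 and WT5 low for both. KO3 differed in sign. WT1 was low for the markers, while the canonical genes stood at -0.055 there, with 51 of 76 above their own median. The 7 T cell markers, by contrast, had median deviations of -0.080, 0.48, 0.49, -0.28 and 1.10 in KO1 to KO5, against -0.42, -0.25, -0.26, 0.24 and -0.91 in WT1 to WT5, so they were low in KO4 and WT2, where the block was high, and high in KO3 and WT4, where it was low. Their median log2 difference was 0.65 (7 of 7 higher), with summed levels of 416 to 987 normalized counts in KO and 267 to 592 in WT. The 6 neutrophil markers had median deviations of -0.40, 0.87, 0.45, 0.65 and 0.59 in KO1 to KO5, against -1.93, 0.98, 1.16, -0.70 and -1.06 in WT1 to WT5, and were highest in WT3, a library low in the block. Their summed levels were 939.6 to 2545 normalized counts in KO and 519 to 2861 in WT. The 6 macrophage markers had median deviations of -0.040, 0.13, 0.040, 0.36 and 0.11 in KO1 to KO5, against -0.14, 0.48, -0.71, 0.18 and -0.38 in WT1 to WT5, with WT2 highest and WT3 lowest, and summed levels of 13294 to 18145 normalized counts in KO and 8067 to 19370.0 in WT. Carcinoma markers had a median log2 difference of -0.82 (0 of 10 higher). Their part in the ribosomal protein levels was not tested.

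Across all genes, the correlation of a library's deviations with GC content ran from -0.29 in KO1 to 0.073 in KO3 among KO libraries and from -0.40 in WT5 to 0.52 in WT4 among WT libraries (17883 genes, description only). The canonical genes have a median GC content of 51.0% and a median length of 1077 bases, against 49.0% and 2940 bases over all genes tested. Across the 76 canonical genes, the correlation of GC content with the log2 difference was -0.26, and it was -0.055 after splines of GC content and length had been removed from each library. The genes share libraries, so this too is a description. With that correction the canonical median was 0.15 ± 0.42 over KO libraries and -0.14 ± 0.37 over WT libraries (SD, n = 5 each), and KO5 and WT2 remained the highest libraries of their groups, at 0.70 and 0.41.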

How the data were processed

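Per the labels' protocols, total RNA of frozen tumour sections was purified on columns, freed of DNA and ribosomal RNA, fragmented, and primed at random with primers that carry molecular identifiers. Per the submitters' processing notes, bcl2fastq 2.17 and the build GRCm38 were used; aligner, counter and use of strand or identifiers are not given in the sources used here. The authors deposited gene-level signal values, read counts divided by a size factor per library. All values (100%) are whole multiples of 1 read within 0.0001 reads, so whole reads were recovered. A median-of-ratios calculation on them returned the deposited factors. The errors given come from the spread between libraries.

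Symbols came from GENCODE M21 (17953 of 18047 IDs). Log2 of the normalized count plus 1 was fitted, KO against WT, in R 4.3.3 by limma 3.58.1 with its trend option on the 17975 genes with a mean of at least 10, with Benjamini-Hochberg adjustment at 0.05. On this scale the change of low genes is understated. edgeR 4.0.16, which called 1 gene of all tested, and DESeq2 1.42.0, which called 121, were run on the recovered reads. The limma step was also tested on simulated data, with genes drawn independently of each other. It recovered 19.3% of genes changed by a log2 of 1 and 79% of those changed by a log2 of 2. Of the genes it called, 5.14% on average were unchanged. The fitted differences of the canonical genes, -0.25 to 0.72, were smaller than either size. Ratios used exact permutation (scipy 1.17.1). Plots used matplotlib 3.10.9 under Python 3.11.15.

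The members, gene lists and markers were chosen with earlier results of these data known. Genes were named by rule: members past the threshold (none passed), the 5 largest differences in each direction, the 3 highest and 3 lowest levels per kilobase in each subunit, the stalk genes with Rps6, Rpl5 and Rpl11, paralogues and their partners, and up to 4 genes of smallest p from each other list. Rpl15, Rps26, Acta1 and the canonical genes named for a lower fitted value were named after their values were seen. Of the 85 members 38 share exonic bases with another annotated gene, 14 of them with a gene in the table, and reads of the 113 pseudogenes with values may be split from their parents by the counting. The check of the targeted gene and the values of some genes that the rule names are not reported here. Protein sequences were not used here.

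The alternatives tried another test, pseudocount, filter or scaling, a correction for GC content and length, the use of the RESUB prefix, the replicate block and the libraries used. Leave-one-out and prefix values of the Rpl22l1 ratio were added after seeing the data. WT2 and WT5, which share the number 170, were kept as separate libraries because the labels list them so; whether they come from 1 tumour is not given, and they were also averaged as an alternative.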

Additional observations from a re-analysis of the deposited data

Results flagged for a closer look

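In a group of 5 libraries, a library whose gap to the nearest other exceeds 0.71 of the group's range was set aside for a closer look. Of 100 sets of 5 values screened (named genes and paralogue ratios among them, by group), 10 had such a library. In 9 of these it was WT2. For separate sets chance gives about 1 in 20. The sets screened here share libraries and hold genes that move together, so their count cannot be set against that rate. Rpl3l stood at 366 normalized counts in WT2, with WT1 next at 14.1, and muscle markers were highest in the same library. Rps2 had 11418 in WT2 and 5287 in WT1, the next library, and Rps24 had 12655 and 7187. Rps3 had 8828 in WT2 and 5078 in WT1, and Rplp1 had 7451 and 4524. Rpl39 had 2634 and 1835, and Rpl36al 851 and 500.3. At low levels the same held for Rps27rt, at 89.2 in WT2 and 49.9 in WT1, and Rpl39l, at 29.1 and 9.97. The last set was the log2 ratio of Rps27l to Rps27 in KO tumours, which was -3.60 in KO1 and -3.83 in KO5, the next library. What sets these libraries apart was not tested.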

How the results depend on the processing

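Over 25 alternatives, 0 of the members with a value were called in any; these were 85, or 81 with a mean of at least 100, and Rpl3l had no adjusted p in DESeq2. Their median log2 difference was positive in each of these alternatives. With 1 library left out it ran from 0.15 (without KO5) to 0.44 (without KO1 or WT2), the small subunit median from 0.15 to 0.48, the large from 0.14 to 0.43, and the gap between them from 0.014 to 0.060. Higher fitted values ran from 63 to 82 of 85, and genes higher at an unadjusted p under 0.05 from 1 to 18, with 18 without KO1 and 18 without WT2, 5 without KO3, 2 without WT1 or WT5, and 1 without KO2, KO4, KO5, WT3 or WT4, while the share of all genes ran from 1.59% to 3.95%. Among prefixed libraries only, with 1 KO library, the medians were 0.80 for all 85, 0.82 for the small and 0.78 for the large subunit. The gap between subunits was 0.11 with the prefix as a term and 0.15 among libraries without the prefix, where WT5 is the only WT library. The cause was not tested. With the union of annotated exons as length, the median level of the canonical genes was 3087 normalized counts per kilobase, against 5942 with the principal transcript, because the union is longer.

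Across genes, the correlation of same-numbered KO and WT deviations was 0.017, 0.099, 0.52, 0.026 and -0.23 for numbers 1 to 5. Libraries of unlike numbers were not compared, so these values cannot show whether the replicate numbers pair the libraries. With the replicate number as a block the median stayed at 0.27, with 0 called and 4 genes higher at an unadjusted p under 0.05.

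For the 38 named genes, 27 of 946 values moved by more than the spread between libraries, and 56 values in 11 genes had the other sign. Among these genes the stalk, Rps2 and Rpl8 had positive differences with the prefix term. Scaling without the 85 genes gave a median of 0.28 and TMM scaling 0.28. The spread between libraries limits what 5 against 5 can show: the SE of a member's log2 difference ran from 0.22 (Rpl3) to 1.05 (Rpl3l). The Rpl22l1 ratio difference ran from 0.37 to 0.55 with 1 library left out, with exact permutation p of 0.0159 to 0.0317. These p-values are not adjusted over the 9 pairs. Over all libraries the exact permutation p adjusted over the pairs was 0.143, so the ratio did not pass. Among the libraries without the prefix the difference was 0.13.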
